A study of Mus musculus with 33 samples.

Results

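The genes Map2, Mapt, Map1b, Tubb3, Stmn2, Nefl, Nefm and Gap43 were chosen by name as genes of the neuronal cytoskeleton, and they are 8 of the 20665 protein-coding genes that RefSeq places on chromosomes 1 to 19 of GRCm38, the assembly behind mm10. Each gene body, with 100 kb on either side of it, was read against maps of the forebrain and heart of C57BL/6 mouse embryos at E11.5 and of mouse embryonic stem (mES) cells, a C57BL/6 line grown in LIF with 2 inhibitors. CUT&RUN, in which an antibody directs a nuclease to cut out the DNA around its target, was done in 33 libraries. H3K9me2, a histone mark of repressed chromatin, and Lamin B1, a protein of the nuclear lamina, had 3 libraries each in every source, and the IgG control had 6 in forebrain, 6 in the heart and 3 in mES cells. Forebrain replicates were right lobes and heart replicates whole organs, each pooled from a separate litter, and mES replicates were separate culture vessels of 1 line.

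The submitters reduced these libraries to 3 lists of domains per source. LAD stands for a lamina-associated domain, a long stretch of chromatin held at the nuclear envelope. KOD is a name the submitters use without spelling it out, and the third list is called open, which is a label here and not a measurement of accessibility. Bases can also lie in no list. The lists combine the replicates and hold no score, so the depth behind a domain is unknown, no value below has a replicate error, and the differences between sources are described without a test. Both tissues mix cell types, and a list cannot tell a state shared by all cells from one held by many of them. No RNA was measured, so neither the labelled tissues nor the activity of a gene could be checked against transcripts.

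Neurons carry axons and dendrites that are held in shape by bundles of microtubules and by neurofilaments. Microtubules are built from tubulin, including the neuronal beta-tubulin of Tubb3, and are stabilised by the microtubule-associated proteins of Map2 in dendrites, Mapt (tau) in axons and Map1b in growing neurites. Stmn2 encodes a stathmin, a protein that binds free tubulin and promotes microtubule turnover, Gap43 encodes a membrane protein of the axonal growth cone, and Nefl and Nefm encode the light and medium neurofilament subunits. Several of these genes serve as routine markers of young neurons.

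The state at the start of transcription was also read where a promoter was at hand. The RefSeq table of promoters (GRCm38.p6) holds 3 of the 8 genes, Map2, Map1b and Tubb3, each of which differed in state between sources. Each window runs from 250 bases before the start of transcription to 50 after it, 5′ to 3′ on the strand of the gene, and capitals mark every CG dinucleotide. The windows are chr1:66175079-66175378 on the plus strand for Map2, chr13:99516553-99516852 on the minus strand for Map1b and chr8:123411303-123411602 on the plus strand for Tubb3.
Map2: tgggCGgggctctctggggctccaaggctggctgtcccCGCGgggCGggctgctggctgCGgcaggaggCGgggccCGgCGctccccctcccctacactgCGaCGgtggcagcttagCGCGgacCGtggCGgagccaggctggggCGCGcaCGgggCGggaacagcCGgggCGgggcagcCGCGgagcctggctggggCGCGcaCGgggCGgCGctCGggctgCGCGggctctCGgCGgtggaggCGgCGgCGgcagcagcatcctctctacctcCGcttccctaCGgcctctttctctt
Map1b: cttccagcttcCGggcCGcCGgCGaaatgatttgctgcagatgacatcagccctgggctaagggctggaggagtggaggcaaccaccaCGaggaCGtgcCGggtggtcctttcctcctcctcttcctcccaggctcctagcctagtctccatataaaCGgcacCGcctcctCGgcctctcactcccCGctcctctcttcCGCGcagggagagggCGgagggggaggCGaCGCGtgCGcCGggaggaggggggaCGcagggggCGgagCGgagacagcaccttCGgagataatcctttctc
Tubb3: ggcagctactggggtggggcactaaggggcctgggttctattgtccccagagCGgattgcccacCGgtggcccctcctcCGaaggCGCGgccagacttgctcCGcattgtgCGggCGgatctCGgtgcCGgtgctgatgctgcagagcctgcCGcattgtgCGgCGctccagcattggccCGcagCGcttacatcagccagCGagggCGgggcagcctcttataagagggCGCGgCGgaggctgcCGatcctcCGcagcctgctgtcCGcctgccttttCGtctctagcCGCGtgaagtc
The Map2 window holds 37 CG dinucleotides, a number reached by 5.58% of the 32851 promoter windows in the table. The Map1b window holds 23, reached by 21.5% of windows, and the Tubb3 window 26, reached by 16.9%. The median window has 7, so all 3 lie in the CG-rich part of the range. At the start of transcription itself Map2 was open in forebrain, LAD in heart and LAD in mES cells. The Tubb3 start was KOD in forebrain, open in heart and open in mES cells. The Map1b start was KOD in forebrain, open in heart and KOD in mES cells.

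Each gene was given the state with the most bases in its body, and by this rule the 8 genes were spread over every class of chromatin in each source. In forebrain 4 were open, 2 KOD, 1 LAD and 1 in no list, in heart 3 were open, 2 KOD, 2 LAD and 1 in no list, and in mES cells 5 were open, 1 KOD, 1 LAD and 1 in no list. Among all 20665 genes the open share was 57.4% in forebrain, 58.0% in the heart and 63.6% in mES cells, the KOD share 18.9%, 17.8% and 12.9% and the LAD share 16.5%, 14.2% and 16.5%, in that order of sources. With 8 genes these counts are too small to set the group apart from the background. The median open share of the 8 bodies was 25.5% in forebrain, 24.9% in the heart and 94.8% in mES cells, against a median over all genes of 100% in each source. The 8 shares ran from 0% to 100% in every source, so each median rests on the 2 middle genes and does not show a depletion. The mean open share over all genes was 57.2% in forebrain, 57.8% in the heart and 63.6% in mES cells.

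**Figure D1:**
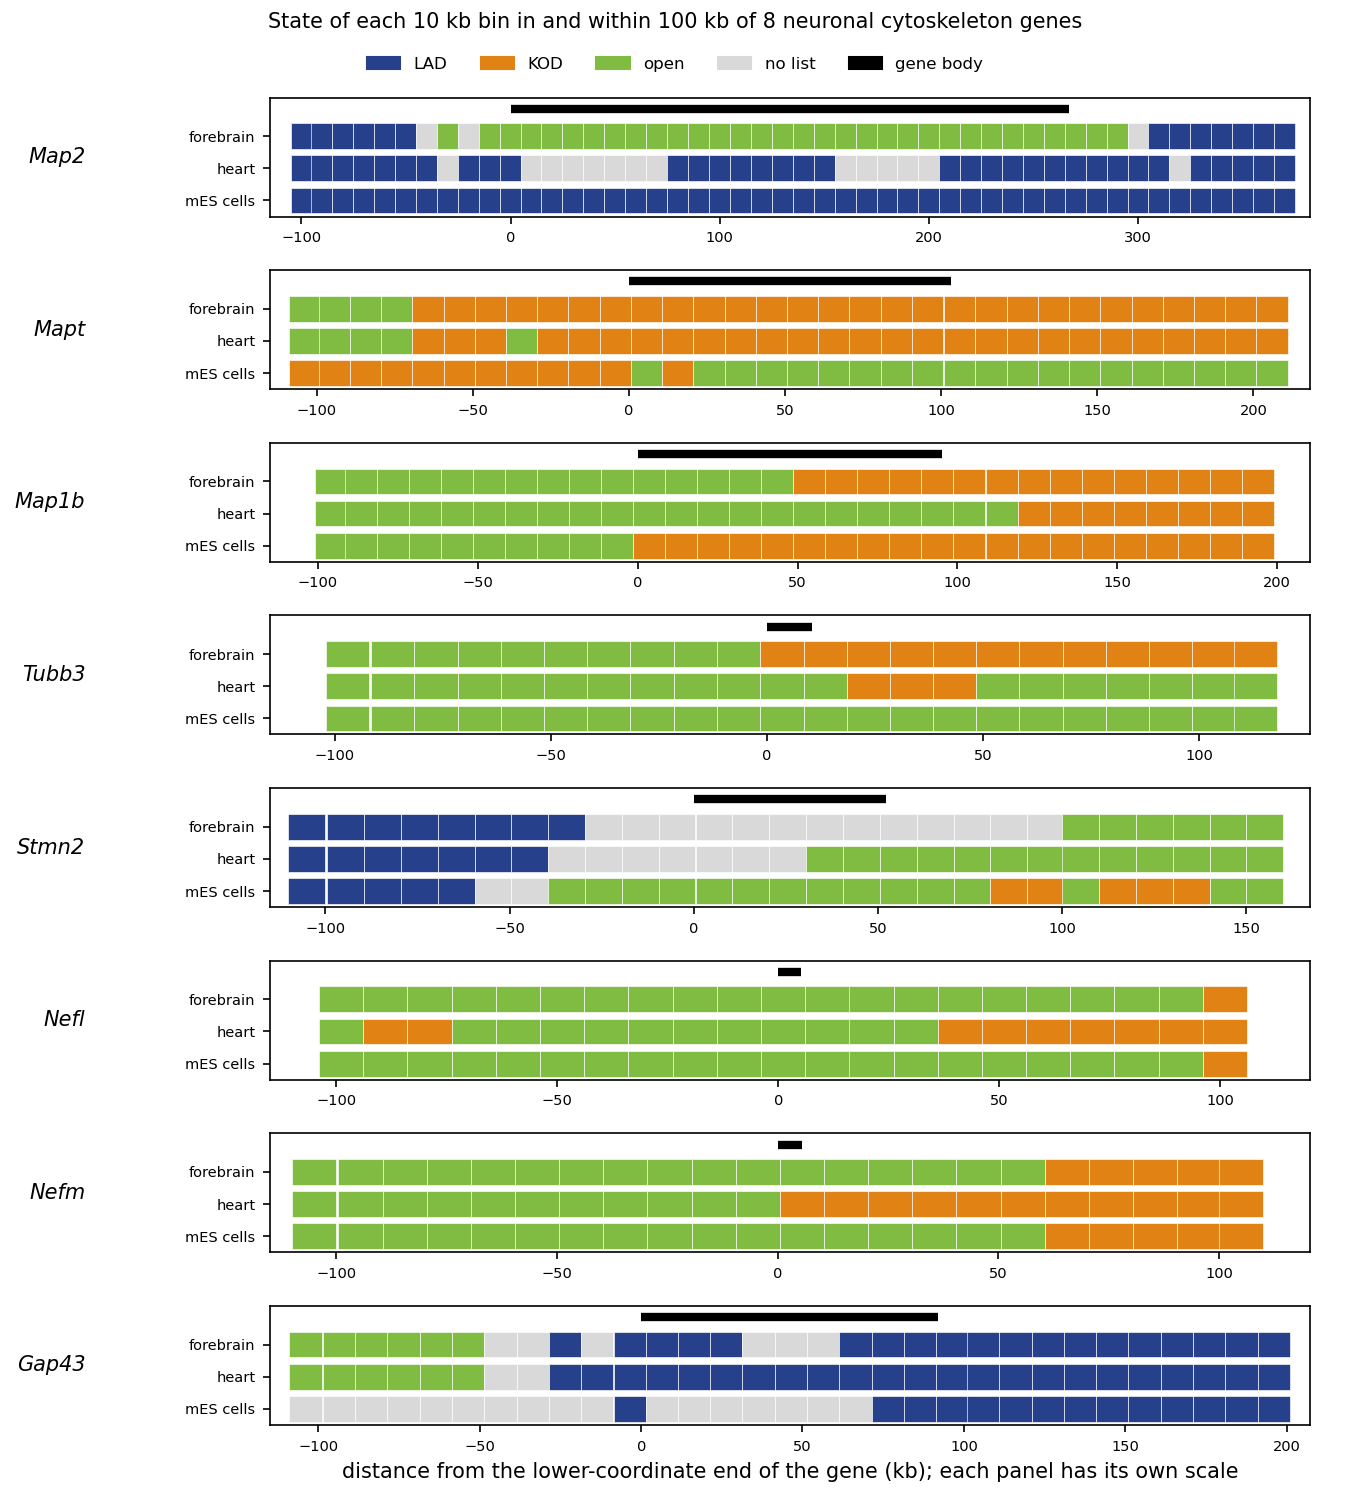
Each panel shows 1 gene, with 10 kb bins coloured by state in forebrain (top row), heart (middle row) and mES cells (bottom row), the distance from the lower-coordinate end of the gene in kb on the x axis, and the gene body as a black bar. The open stretch of forebrain at Map2 ends 15.2 kb before and 27.4 kb after the body. At Map1b the border between open and KOD lies at a different place in each source, and at Nefm it is shifted in heart alone. At Tubb3 it differs between forebrain and heart, and mES cells have none within 100 kb.

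Map2 was the only one of the 8 that was LAD in 1 source and open in another. Its body (chromosome 1, 66175202 to 66442583, 267 kb, longer than 96.9% of protein-coding genes) was open over 100% of its length in forebrain. In heart 55.1% was LAD and 44.9% in no list, and in mES cells 100% was LAD. The forebrain stretch that was open there and LAD in mES cells ran from 66160001 to 66470000, 310 kb, and held no other whole protein-coding gene. In mES cells the LAD around it ran over 1290 kb, from 65350001 to 66640000. In heart the body was crossed by 3 LAD pieces, which held 4.8, 80.0 and 62.6 kb of it, with gaps in no list of 70 and 50 kb between them.

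The flanks of Map2 held more LAD than any other state in all 3 sources. Of the 200 kb on both sides together, 58.7% was LAD and 26.3% open in forebrain, 90.0% was LAD and none open in heart, and 100% was LAD in mES cells. The lower-coordinate side of forebrain was 54.8% LAD and the higher-coordinate side 62.6%. The neighbour Unc80, a subunit of a sodium leak channel complex that begins 25.3 kb from Map2, was LAD in forebrain, heart and mES cells. On the higher-coordinate side the open forebrain stretch was followed by an unlisted bin and then LAD, and on the lower-coordinate side by an unlisted bin, another open bin and another unlisted bin before LAD. Of 18330 genes listed in both maps, 1.60% were open in forebrain and LAD in mES cells, and on chromosome 1 the share was 0.713%. The combination of open in forebrain, LAD in heart and LAD in mES cells was held by 35 genes, 0.169% of all, and open in forebrain with LAD in heart by 0.977% of the genes listed in those maps. The heart part of it rests on the larger of a LAD and an unlisted share, and without domains under 100 kb, or with 20 kb trimmed from each domain end, Map2 was in no list in heart.

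Mapt was KOD in both tissues and mainly open in mES cells. Its body (chromosome 11, 104229409 to 104332090, 103 kb) was 100% KOD in forebrain, 100% KOD in heart and 89.7% open in mES cells, where the other 10.3% was KOD. The stretch that was KOD in forebrain and open in mES cells ran from 104250001 to 104470000, 220 kb, and the stretch that was KOD in heart and open in mES cells had the same ends. It also held Kansl1, a gene of a histone acetyltransferase complex 1.41 kb away. The higher-coordinate 100 kb was 100% KOD in forebrain, 100% KOD in heart and 100% open in mES cells. On the lower-coordinate side the picture differed, with 69.4% KOD in forebrain, 59.4% KOD in heart and 100% KOD in mES cells, and Crhr1, a receptor of corticotropin-releasing hormone 53.9 kb away, was open in forebrain, open in heart and KOD in mES cells. Sppl2c, a gene of the signal peptide peptidase family 38.2 kb away on the same side, was KOD in forebrain, heart and mES cells.

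The change at Mapt was one that many genes of its chromosome shared. KOD in forebrain and open in mES cells was found at 13.1% of the genes listed in both maps, and at 35.2% of those on chromosome 11. For heart against mES cells the same values were 11.0% and 27.1%. KOD in both tissues and open in mES cells was the state of 1345 genes. Whether the Mapt locus differs from chromosome 11 at large was not tested.

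At Map1b a border between open and KOD lay at a different place in each source. The body (chromosome 13, 99421464 to 99516602, 95.1 kb) was 51.0% open and 49.0% KOD in forebrain, 100% open in heart and 100% KOD in mES cells. Open chromatin ended and KOD began at base 99470001 in forebrain, inside the gene, at 99540001 in heart, beyond its higher-coordinate end, and at 99420001 in mES cells, 1.46 kb before its lower-coordinate end. Relative to mES cells the open domain thus reached 50 kb further in forebrain and 120 kb further in heart. Map1b lies on the minus strand, so the part that was KOD in forebrain holds the start of transcription. The lower-coordinate flank, with Mrps27, a mitochondrial ribosomal protein gene, and Ptcd2, was 100% open in forebrain, 100% open in heart and 98.5% open in mES cells. Open in forebrain and KOD in mES cells was found at 6.10% of genes, and open in heart and KOD in mES cells at 4.45%. The forebrain state of Map1b is close to an even split, and with 20 kb trimmed from domain ends it was in no list.

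Tubb3 was KOD in forebrain and open in heart and in mES cells. The body (chromosome 8, 123411553 to 123422015, 10.5 kb) was 100% KOD in forebrain, 100% open in heart and 100% open in mES cells, but it touches only 2 bins. The KOD of forebrain began at 123410001, 1.55 kb before the gene, and ran for 450 kb. Its lower-coordinate neighbours Mc1r, the melanocortin receptor 0.809 kb away, Tcf25 and Spire2 were open in forebrain, heart and mES cells. On the other side the 4 neighbours within 100 kb were KOD in forebrain, while in heart only Def8, 20.9 kb away, was KOD. Afg3l1, Dbndd1 and Gas8 were open in heart, and these 4 genes were open in mES cells.

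The flank values show the same asymmetry. The higher-coordinate 100 kb was 100% KOD in forebrain, 30.0% KOD and 70.0% open in heart, and 100% open in mES cells. KOD in forebrain and open in heart was found at 6.49% of genes listed in both maps and at 5.41% of those on chromosome 8. The combination of Tubb3 was held by 1037 genes. The body lies within 20 kb of a domain end in forebrain and in heart, and with that length trimmed it was in no list in both.

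**Figure D2:**
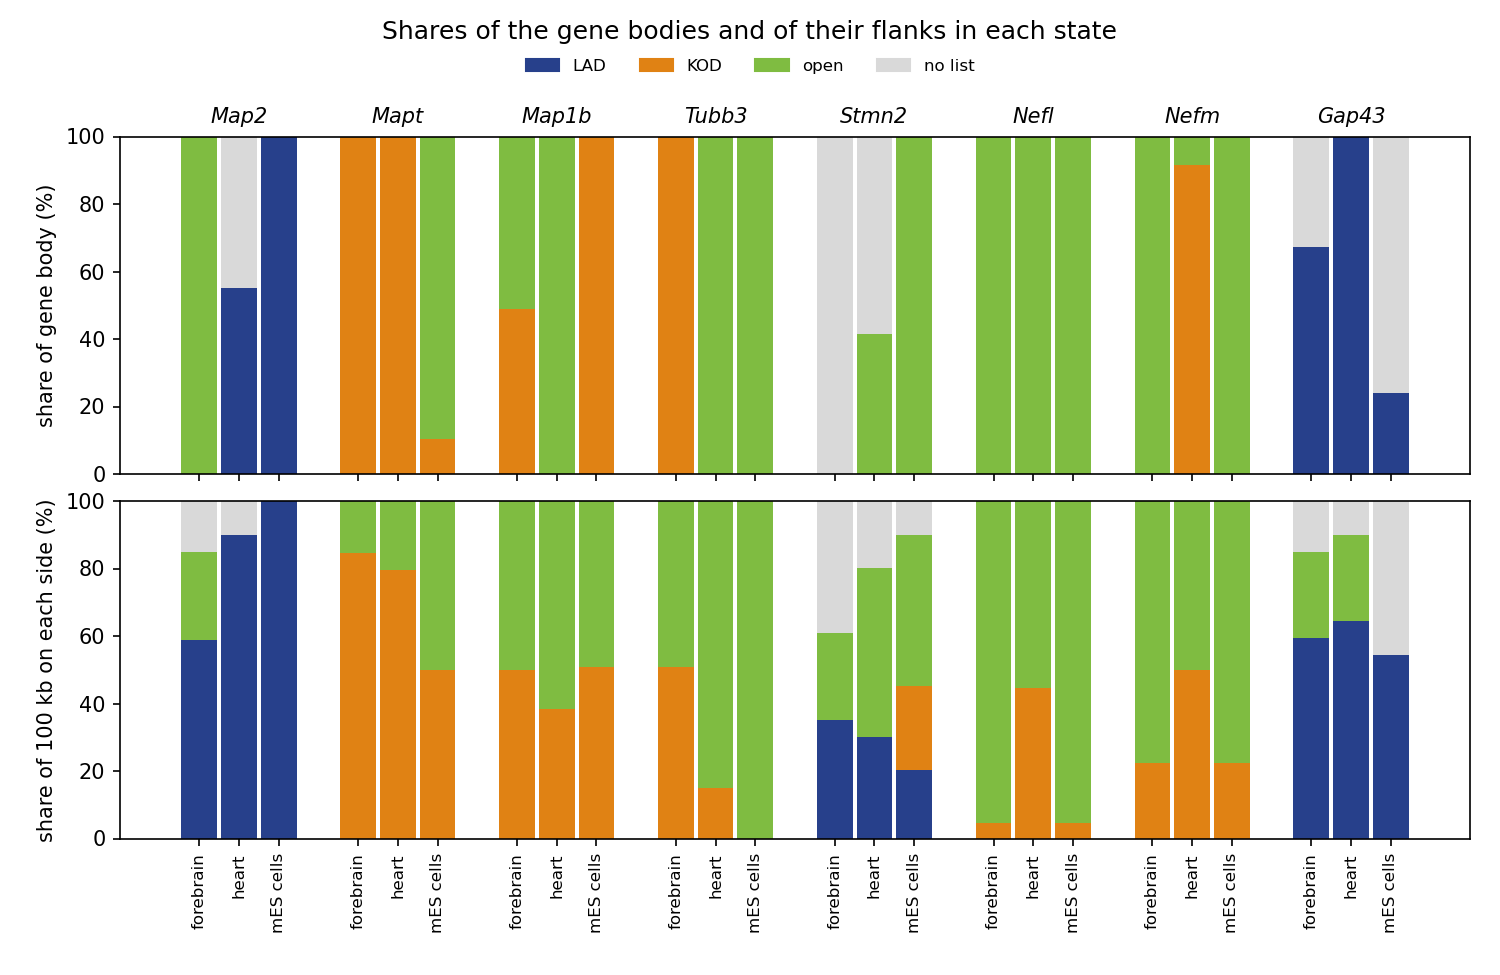
Stacked bars give the share in percent of each gene body (top) and of the 100 kb on both sides of it (bottom) in LAD, KOD, open and no list, for forebrain, heart and mES cells from left to right within each gene. Map2 is 100% open in forebrain and 100% LAD in mES cells while its flanks hold 58.7% LAD in forebrain, and the flanks of Nefl and Nefm have more KOD in heart than in the other sources.

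The neurofilament genes Nefl and Nefm lie 30.4 kb apart on chromosome 14, so their flanks overlap and they are not independent. Nefl (68083863 to 68089095, 5.23 kb) was 100% open in all 3 sources. Nefm (68119545 to 68125004, 5.46 kb) was 100% open in forebrain, 91.6% KOD and 8.35% open in heart, and 100% open in mES cells. Forebrain and mES cells shared the same open domain, from 67640001 to 68180000, 540 kb with both genes and 4 others inside. In heart the open domain at Nefl was 110 kb long and ended at 68120000, where a KOD of 580 kb began, 0.456 kb inside Nefm. A border thus parted Nefl from nearly all of Nefm in heart, and none lay between them in forebrain or mES cells.

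Around Nefl the flanks were 4.55% KOD in forebrain, 44.5% KOD in heart and 4.55% KOD in mES cells. Around Nefm they were 22.5%, 50.0% and 22.5% KOD in the same order. Open in forebrain and KOD in heart was found at 5.48% of genes listed in both maps and at 10.9% of those on chromosome 14. KOD in heart and open in mES cells was found at 11.0%, and at 10.3% on that chromosome. Nefl had the commonest combination of the genome, open in all 3 sources, with 9041 genes or 43.8%. The heart state of Nefm rests on 1 of the 2 bins it touches, and with 20 kb trimmed it was in no list in heart.

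Gap43 was LAD in the tissues and mostly in no list in mES cells. Its body (chromosome 16, 42248552 to 42340651, 92.1 kb) was 67.4% LAD and 32.6% in no list in forebrain, 100% LAD in heart, and 24.0% LAD and 76.0% in no list in mES cells. No base of it was open or KOD in forebrain, heart or mES cells. In forebrain 2 LAD pieces held 31.4 and 30.7 kb of the body on either side of a gap of 30 kb, and in heart 1 LAD of 570 kb, from 42220001 to 42790000, held all of it. In mES cells the gap inside the body was 70 kb long and its edges were LAD. With no open or KOD base in any source, bases of Gap43 listed in both maps could only be LAD in both. Such bases made up 24.0% of the body for forebrain and mES cells and 24.0% for heart and mES cells.

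The higher-coordinate 100 kb of Gap43 was 100% LAD in forebrain, heart and mES cells. The lower-coordinate side was 51.4% open in forebrain, 51.4% open in heart and 0% open in mES cells, where 91.4% was in no list. Lsamp, an adhesion gene of the IgLON family 66.9 kb away on that side, was LAD in forebrain, heart and mES cells. That state describes its whole body, from 39984254 to 42181679. The end of Lsamp within 100 kb of Gap43 was open in forebrain, open in heart and in no list in mES cells. Bodies in no list made up 7.21% of genes in forebrain, 9.99% in the heart and 7.05% in mES cells. The forebrain call for Gap43 is a weak one, since its midpoint lies in the gap, and with domains under 100 kb left out or 20 kb trimmed the body was in no list.

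Stmn2 was open in mES cells and partly or wholly without a state in the tissues. Its body (chromosome 3, 8509527 to 8561604, 52.1 kb) was 100% in no list in forebrain, 58.5% in no list and 41.5% open in heart, and 100% open in mES cells. The forebrain gap was 130 kb long, between a LAD and an open domain, and the heart gap 70 kb, also between a LAD and an open domain. The open domain of mES cells was 120 kb long, from 8470001 to 8590000. No whole protein-coding gene other than Stmn2 lay in the forebrain gap or in the mES open domain, and none lay within 100 kb of Stmn2.

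Next to Stmn2, LAD covered 70.5% of the lower-coordinate 100 kb in forebrain, 60.5% in the heart and 40.5% in mES cells, and LAD covered none of the other side. The higher-coordinate side was 51.6% open in forebrain with the rest in no list, 100% open in heart, and 50.0% open and 50.0% KOD in mES cells. The gene therefore sat between a LAD on one side and open or KOD chromatin on the other in each source. No list in both tissues and open in mES cells was the state of 187 genes, 0.905% of all. As bases in no list have no state, Stmn2 was left out of the counts of genes that differ, and over its listed bases alone it was open in heart.

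Counted together, some of these genes differed in state in each pair of sources. For forebrain against mES cells 4 of the 6 genes listed in both maps differed, namely Map2, Mapt, Map1b and Tubb3, while the share over all genes was 22.6%. For heart against mES cells 3 of 6 differed, Mapt, Map1b and Nefm, with 19.6% over all genes. For forebrain against heart 3 of 7 differed, Map2, Tubb3 and Nefm, with 15.2% over all genes. The first 2 comparisons share the mES map, and so their counts are not independent. Counts of 6 or 7 genes are coarse and were not tested. With 20 kb trimmed the numbers that differed were 2 (Map2 and Mapt), 2 (Mapt and Map1b) and 0, but among fewer genes. Those still listed in both maps were Map2, Mapt, Nefl and Nefm for forebrain against mES cells. They were Mapt, Map1b and Nefl for heart against mES cells, and only Mapt and Nefl for forebrain against heart. Map2 was the only one of the 8 whose difference involved a LAD, and the others were exchanges of KOD and open.

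**Figure D3:**
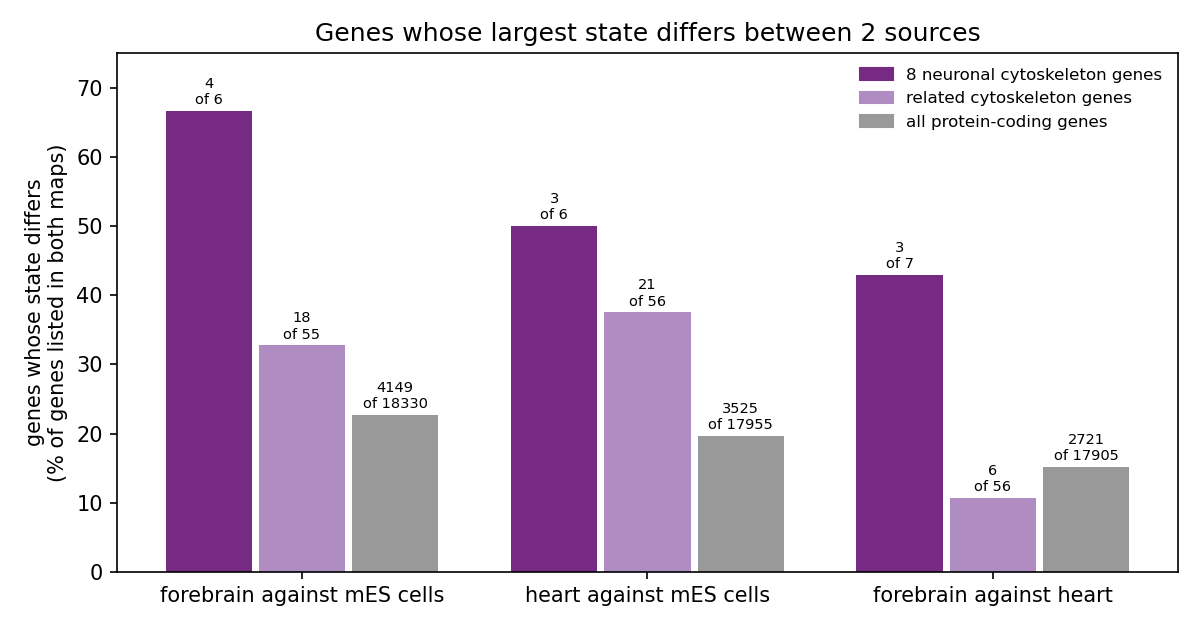
Bars give the share in percent of genes listed in both maps whose largest state differs, for the 8 neuronal cytoskeleton genes, the related cytoskeleton genes and all protein-coding genes, with the counts above each bar. The 8 genes stand at 4 of 6, 3 of 6 and 3 of 7, counts too small for a comparison with the other bars.

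A long body leaves more room for a border to fall inside it, and 4 of the 8, Map2, Mapt, Map1b and Gap43, are each longer than at least 87.7% of protein-coding genes (median 17.5 kb). A change of state or a gap cut 2 of the 8 bodies in forebrain (Map1b and Gap43), 3 in heart (Map2, Stmn2 and Nefm) and 2 in mES cells (Mapt and Gap43). Over all genes the share was 14.6%, 16.5% and 12.1%. The part of gene length in these counts was not tested. LAD bases lay within 100 kb of 3 of the 8 genes in each source, Map2, Stmn2 and Gap43, and within 100 kb of 29.6% of all genes in forebrain, 30.2% in the heart and 27.4% in mES cells. The other 5 had no LAD within that distance in forebrain, heart or mES cells.

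Other genes of the same machinery were mostly open. Of 63 listed genes of tubulins, microtubule-associated proteins, stathmins, intermediate filaments, growth cones and motors, 61 lie on the chromosomes mapped, and 32 of them were open in all 3 sources, beside 43.8% of all genes. None was LAD in forebrain or heart and 1, Marcks, was LAD in mES cells, while LAD held 16.5% of all genes in forebrain, 14.2% in the heart and 16.5% in mES cells. Marcks, a membrane substrate of protein kinase C that binds actin, was in no list in forebrain, 100% open in heart and 100% LAD in mES cells. Of the 61, 45 were open in forebrain, 44 in the heart and 48 in mES cells, beside shares over all genes of 57.4%, 58.0% and 63.6% in the same order.

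Differences among them were exchanges of KOD and open, apart from Marcks between heart and mES cells. Between forebrain and mES cells 18 of 55 genes listed in both differed, 32.7% beside 22.6% over all genes, and between heart and mES cells 21 of 56 did, 37.5% beside 19.6%. Between forebrain and heart 6 of 56 differed, 10.7% beside 15.2%. KOD in forebrain and open in mES cells was the state of 11 of them, and open in forebrain and KOD in mES cells that of 7. For heart these numbers were 13 and 7. These counts take each gene separately, although neighbouring genes can share a stretch. With the 8 genes included, 13 genes that were KOD in forebrain and open in mES cells lay in 9 stretches, and 15 that were KOD in heart and open in mES cells in 11.

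Tubulin genes that differed did so in 1 direction. Of 16, 6 were KOD in forebrain and in heart and open in mES cells, namely Tuba1a, Tuba1b and Tuba1c, alpha-tubulins, Tubg1 and Tubg2, gamma-tubulins of microtubule nucleation, and Tubd1, delta-tubulin. Over all genes the share with this combination was 6.51%. Tuba1a, Tuba1b and Tuba1c shared 1 stretch of chromosome 15 with Prph, the intermediate filament peripherin, 260 kb long in forebrain and 170 kb in heart, and Tubg1 and Tubg2 shared 1 on chromosome 11. The 6 genes thus stand for 3 loci, 2 of them on the chromosome of Mapt, where KOD in the tissue and open in mES cells was found at 35.2% (forebrain) and 27.1% (heart) of genes. The other 10, among them the beta-tubulins Tubb2a, Tubb2b and Tubb5, were open in all 3 sources, so Tubb3 was the only beta-tubulin gene in these lists with another state in any source.

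The opposite combination, open in both tissues and KOD in mES cells, was found outside the tubulins. Crmp1, Dpysl4 and Ank3 of the 12 growth cone and axon genes, Kif1a and Kif21b of the 11 motor genes, and Dclk1 and Tppp of the 13 microtubule-associated genes had this combination, which Map1b shared and which 3.11% of all genes held. Crmp1, Kif1a and Tppp held their state over 100% of the body in each source. Dclk1 was closer to an even split, 57.0% open in heart and 53.9% KOD in mES cells, and Kif21b was 61.4% KOD in mES cells. Crmp1 and Dpysl4 encode collapsin response mediators, Ank3 the ankyrin of the axon initial segment, and Kif1a an axonal kinesin. Of the 3 other stathmins Stmn1 was KOD in forebrain, KOD in heart and open in mES cells, Stmn3 was open in all 3 sources and Stmn4 KOD in all 3. The heavy neurofilament gene Nefh was open throughout, and Ina, which encodes alpha-internexin, was open over 50.0% of its body in forebrain, 100% KOD in heart and 100% open in mES cells, the combination of Nefm.

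**Figure D4:**
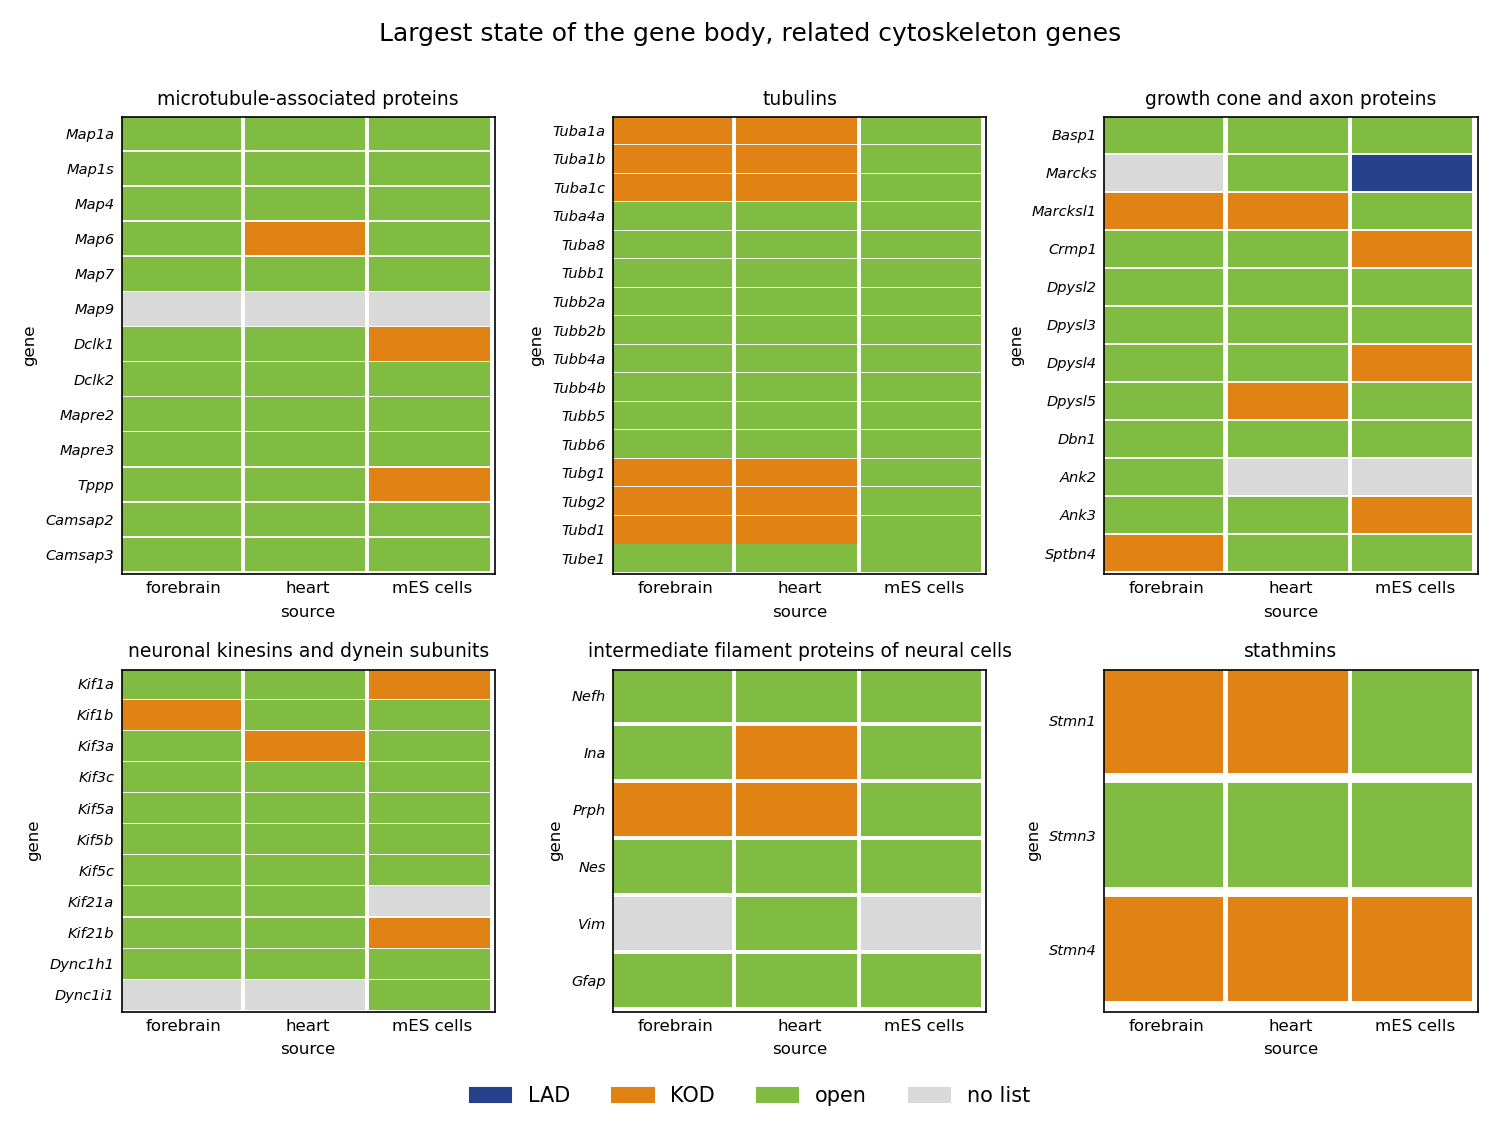
Tiles give the state with the most bases in each gene body in forebrain, heart and mES cells (columns), for 61 related genes in 6 lists (panels). Marcks in mES cells is the single LAD tile, and 32 of the 61 rows are open in all 3 sources.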

How the data were processed

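The authors deposited 9 lists, 3 per source, which give the position of each domain on chromosomes 1 to 19 in steps of 10 kb. The submitters' processing notes name Bowtie2 2.5.0, cutadapt 4.2, Trim Galore, Picard, deepTools and the mm10 build. The calling of domains and the use of IgG are not given in the sources used here. The labels of every H3K9me2 and Lamin B1 library name the lists of its source, but do not say which target went into which list. Library depth and the calling threshold can also move a domain's ends.

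The lists were laid over the genome with Python 3.11.15, numpy 2.4.6 and pandas 2.3.3 (figures with matplotlib 3.10.9), and the overlap code was tested on simulated data. Gene bodies came from RefSeq (GRCm38.p6), and all 8 symbols matched. Flanks are the 100 kb on each side, and a gene takes the state with the most bases in its body. Counts of differing genes use genes listed in both maps. All 8 genes are described. Related genes are named if LAD in 1 source and in another state elsewhere, and the others named were chosen after their values were seen. The genes and lists were chosen with earlier results of these data known. The alternatives are trimmed or filtered domains, other rules for the state of a gene, filled gaps and other flank widths. There is 1 map per source and no test.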

Additional observations from a re-analysis of the deposited data

How the results depend on the processing

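With 20 kb trimmed from every domain end, 18 of the 24 states (8 genes in 3 sources) were as reported, and 6 became no list, those of Map1b, Tubb3 and Gap43 in forebrain and of Map2, Tubb3 and Nefm in heart. There were then 0 LAD, 1 KOD and 4 unlisted genes in forebrain and 1 LAD, 1 KOD and 4 unlisted genes in heart. The genes that differed numbered 2 for forebrain against mES cells and 0 for forebrain against heart. In that last pair only Mapt and Nefl were still listed in both maps. Trimming takes bases from every domain, so genes near a border lose their state by construction. Without domains under 100 kb, Gap43 in forebrain and Map2 in heart became unlisted, which left 0 LAD and 2 unlisted genes in forebrain and 1 LAD and 2 unlisted in heart. At the gene midpoint Gap43 was unlisted in forebrain, with 0 LAD and 2 unlisted genes there. Over listed bases only, Stmn2 was open in heart and Gap43 LAD in mES cells, so that unlisted genes numbered 0 in heart and 0 in mES cells and LAD genes 2 in mES cells. All 24 states were as reported with 5 kb added on each side. They were also as reported with gaps of at most 20 kb filled, but the shortest gap touching a body was 30 kb, so this setting could not change them. Of 102 recomputed counts, flanks of 50 and 200 kb included, 85 were within 1.5 times the reported one. These include the counts with filled gaps, which could not move. The start of transcription could be used for Map2, Map1b and Tubb3, and of these Map1b in forebrain had another state there, KOD. Replicates could not be left out, since the lists combine them. No paired analysis was possible because the lists combine the replicates and no test was made.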

Other observations

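Genes whose pattern was most like that of each cytoskeleton gene were found by the mean absolute difference over 24 shares (4 states of the body and of both flanks together, in 3 sources), leaving out genes within 1 Mb of the 8. This is a likeness of 3 maps and says nothing of shared function. For Map2 and for Gap43 no gene lay within 5 percentage points. The nearest to Gap43 were Cpa3, a mast cell carboxypeptidase gene, at 6.64 points, Fam111a at 6.84 and Olfr763 at 7.27, all LAD in forebrain, LAD in heart and in no list in mES cells. Stmn2 had 1 gene within 5 points, 0610040J01Rik at 4.47, and Nefl, open throughout, had 4853. The nearest to Map2 were Fat3, an atypical cadherin of 592 kb, at 6.05 points, the vomeronasal receptor gene Vmn1r76 at 6.18 and Gm4884 at 8.04. Vmn1r76 and Gm4884 had the states of Map2 in all 3 sources, while Fat3 was open in forebrain, in no list in heart and LAD in mES cells. Tubb3 had 444 genes within 5 points, led by Taok2, a protein kinase gene, at 0.327 points and the ribosomal protein gene Rps28 at 0.452. Mapt had 194, led by Rnf43 at 1.52 and Akap1 at 1.73, both on chromosome 11, and Krt8, a keratin gene on chromosome 15, at 1.87. Nefm had 141, led by 1700122O11Rik at 1.25, Krtcap3 at 1.33 and Ranbp6 at 1.62. Map1b had 7, led by Tnni1, a troponin I of slow muscle, at 3.93, Spaca7 at 3.95 and Gpc1, a glypican gene, at 4.42. Tnni1 and Gpc1 had the states of Map1b in all 3 sources, while Spaca7 was KOD in forebrain.

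Of 293 genes open in forebrain and LAD in mES cells, 237 had every bin of the body in this combination, and for 31 of those, Map2 included, the stretch held no other whole protein-coding gene. For 21 it touched none at all, and Map2 is not among these, as its stretch reaches 66470000 and Unc80 begins at 66467915. Of the 293, 35 were LAD in heart, 1 KOD, 179 open and 78 in no list.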
